A study of Sus scrofa with 13 samples.

Results

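The integrated stress response and the unfolded protein response were followed in pig liver through 10 genes, PPP1R15A, ATF3, ATF4, DDIT3, TRIB3, ASNS, CHAC1, SESN2, XBP1 and HERPUD1. They were chosen for their roles in these responses, with earlier results of these data known, and taken by symbol from the 35670 genes of the count table. Each symbol matched 1 row, and all 10 were among the 16481 genes that passed the filter on low counts. RNA was sequenced from 13 liver biopsies of female Yorkshire pigs. Baseline biopsies (2 libraries, named 1a and 2) were taken before any ischemia. Ischemic controls (3 libraries) had 45 min of warm liver ischemia and 6 h of reperfusion without receiving cells. The groups named arterial infusion and portal infusion (4 libraries each) had the same ischemia and reperfusion and were given 3000000 human bone marrow mesenchymal stromal cells (BM-MSCs) per kg by their respective vessel, the hepatic artery or the portal vein, 15 min after blood flow returned. No group analysed here went through 6 h without ischemia, so ischemia, surgery, anesthesia and time cannot be told apart.

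Cells that run short of amino acids, heme or oxygen, or that collect misfolded protein in the endoplasmic reticulum (ER), phosphorylate the translation initiation factor eIF2alpha. Most protein synthesis then slows, while the mRNA of the transcription factor ATF4 is translated more, and ATF4 turns on genes for amino acid supply, redox defence and, when stress lasts, cell death. ER stress is also sensed by IRE1, which splices the mRNA of XBP1, and by ATF6, and both raise chaperones and the machinery that degrades misfolded protein. Hepatocytes secrete large amounts of protein and use these responses in health as well as in injury. PPP1R15A (GADD34) closes the loop, since it brings protein phosphatase 1 to eIF2alpha and restores protein synthesis. Gene counts show neither the phosphorylation of eIF2alpha nor the splicing of XBP1 nor translation.

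Total counts ranged from 18975413 to 35949178 per library. A normalized count is the raw count divided by the size factor of its library, and since it is not divided by gene length, levels were compared between livers and not between genes. Of the 11 livers at 6 h, 4 stood apart from the other 7 on principal component 1, which held 62.1% of the variance of the 500 most variable genes. These were ischemic control 2, arterial infusion 1 and portal infusions 1 and 4, with 13581 to 16993 genes detected against 15831 to 20282 in the other 7. Their total counts were 18975413 to 30260803, against 24339939 to 35949178 in the other 7. The part of total count in the number of genes detected was not tested. All 6 hepatocyte markers were found in all libraries, with a summed level of 27989 to 53536 CPM (counts scaled to a common library total) in the 4 livers and of 38412 to 83321 CPM in the other 7. In bulk tissue, fewer cells of a type and less RNA per cell cannot be told apart. The p-values measure the spread between these libraries, and the sources used here do not say whether a baseline biopsy shares its pig with a biopsy at 6 h.

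The first question was whether the stress genes differed between the liver before ischemia and the liver after 6 h of reperfusion. PPP1R15A was higher in all 11 livers at 6 h than in both baseline livers, XBP1 was lower than both baseline livers in 10 of 11, and for the other 8 genes livers at 6 h lay on both sides of the baseline range or within it. With edgeR's quasi-likelihood test and Benjamini-Hochberg adjustment over all genes tested, 0 of the 10 genes passed the threshold of 0.05 in any of the 6 comparisons made, as did 0% of all 16481 genes in each of them. At an unadjusted p under 0.05 the test picked 720 genes for ischemic controls against baseline and 787 for all livers at 6 h against baseline, PPP1R15A being the 1 stress gene in both. DESeq2 on the same 13 libraries called 7 and 16 genes at the adjusted threshold, and 0 of the 10 stress genes in either comparison. Of the 10 genes, 7 had a log2 fold change above 0 in each of these comparisons, with medians of 0.19 and 0.11, beside medians of 0.00 and -0.01 over all genes.

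PPP1R15A (ENSSSCG00000003155, chr6:54172038-54175461 in Sscrofa11.1) had normalized counts of 255 and 604 in baseline livers 1a and 2. The ischemic controls had 1983, 5724 and 2906. Counts after arterial infusion were 1177, 3543, 1032 and 948, and after portal infusion 4812, 1167, 657 and 919. Every liver at 6 h thus lay above the baseline range, though portal infusion 3 exceeded baseline 2 by little. The ischemic controls had a mean of 3538 ± 1949 (SD, n = 3), which was 8.23 times the mean of the baseline livers, 429.9 ± 247 (SD, n = 2). The log2 fold change was 3.02 ± 0.90 (SE), with an unadjusted p of 0.0045 and an adjusted p of 0.98 by edgeR's quasi-likelihood test, and the exact permutation p was 0.1, the smallest that 3 against 2 livers allow. For all 11 livers at 6 h the log2 fold change was 2.34 ± 0.81 (SE), with an unadjusted p of 0.011 and an adjusted p of 0.86 by the same edgeR test and an exact permutation p of 0.0256. Without the 4 livers apart the log2 fold changes were 2.53 and 1.92, and the adjusted p by edgeR was 0.26 and 0.38. The adjusted p for ischemic controls against baseline turned on the method, being 0.18 with DESeq2 on 13 libraries, 7.5e-04 with DESeq2 on the 5 libraries compared, and 0.021 with edgeR without the filter on low counts.

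Among the 10 genes, PPP1R15A was the 1 gene whose ischemic controls all lay above the baseline livers, a pattern shown by 14.8% of all genes, and XBP1 the 1 gene whose controls all lay below, as 16.3% of all genes did. Over all 11 livers at 6 h, again 1 of 10 genes, PPP1R15A, lay wholly above baseline, against 3.3% of all genes, and 0 of 10 lay wholly below, against 3.97%. Neutrophil markers (3 of 5 in the table, none at 0 in any library) summed to 23.4 and 25.4 CPM at baseline and to 18.9 to 397 CPM at 6 h, and erythroid markers (3 of 4 in the table, SLC4A1 at 0 in a library) to 36.4 and 65.8 CPM and to 37.5 to 1001 CPM. The part of either in the level of PPP1R15A was not tested.

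**Figure D1:**
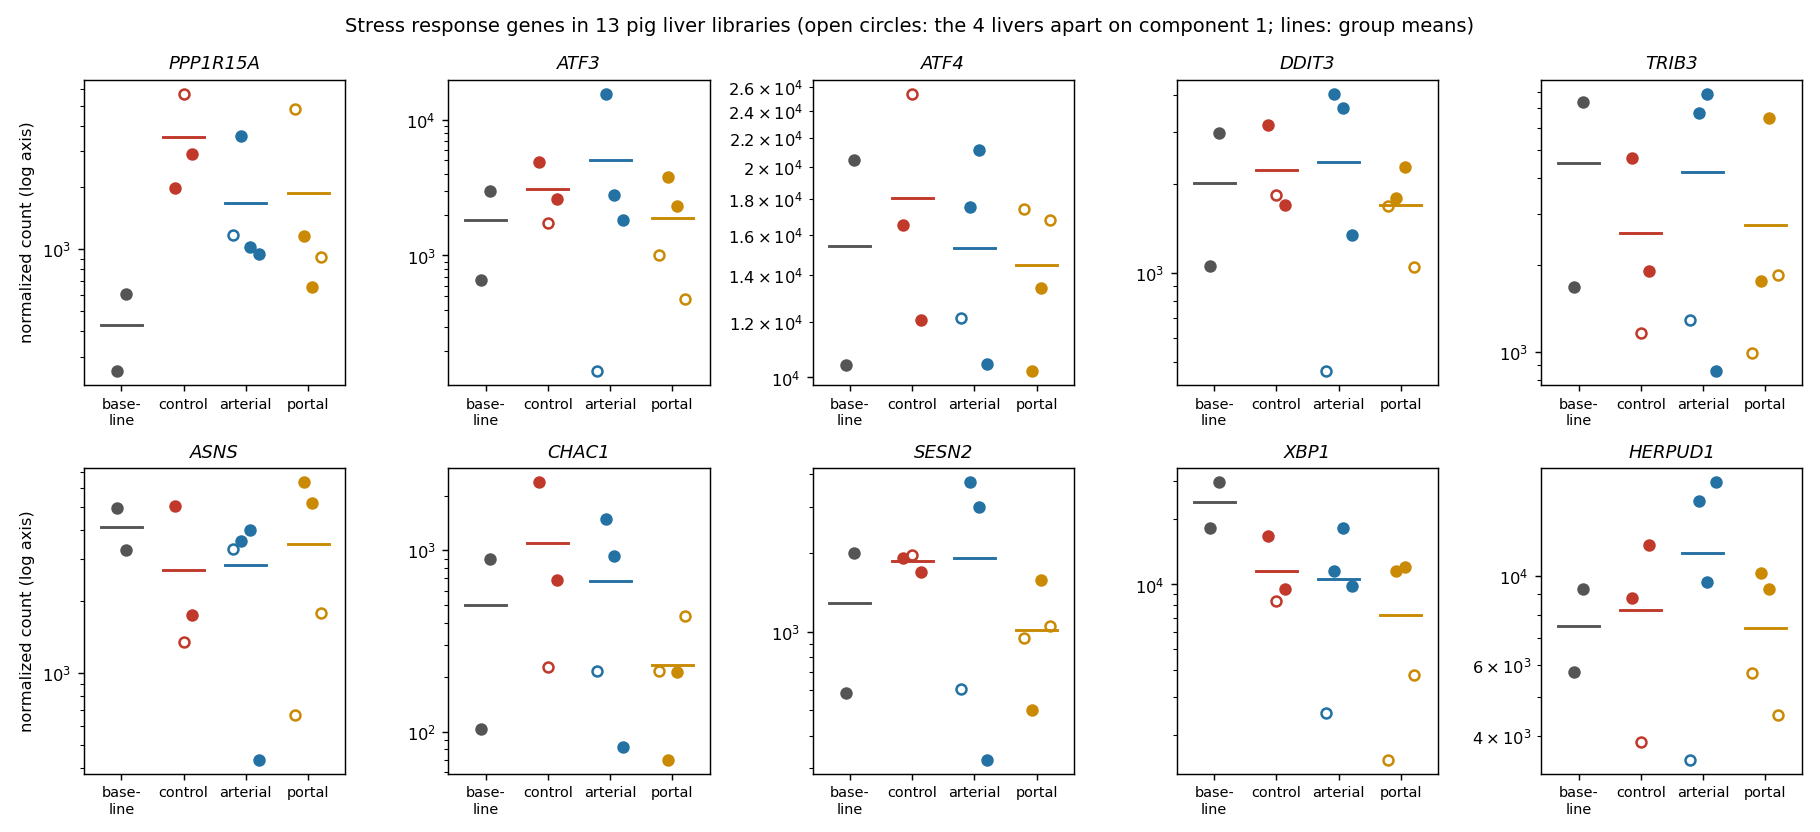
Normalized count (log axis, a separate scale for each gene) of the 10 stress response genes in 13 pig liver libraries, by group. Each circle is 1 liver, horizontal lines are group means, and open circles are the 4 livers apart on component 1. PPP1R15A lies between 657 and 5724 in the 11 livers at 6 h and at 255 and 604 at baseline.

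ATF4 (ENSSSCG00000059058, chr5:8742964-8745752), the transcription factor at the center of the response, varied least among the 10. Its normalized counts were 10407 and 20424 at baseline, 16532, 25440.0 and 12085 in ischemic controls, 12169, 17548, 21140.3 and 10454 after arterial infusion, and 17409, 10210.3, 13431 and 16787 after portal infusion. Of the 11 livers at 6 h, 8 lay between the baseline livers. The log2 fold change of ischemic controls against baseline was 0.22 and that of all livers at 6 h was 0.02, and both turned negative without the 4 livers apart, at -0.08 and -0.11. ATF4 acts mostly through translation of its mRNA, so its mRNA level says little about its protein.

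ATF3 (ENSSSCG00000015595, chr9:130772259-130829678), a stress-induced transcription factor of the same family, varied most. Its normalized counts were 663 and 3000.2 at baseline, 4889, 1748 and 2583 in ischemic controls, 141, 15516, 2776 and 1836 after arterial infusion, and 1007, 3795, 2306 and 481 after portal infusion. The arterial infusion group held both the highest and the lowest liver, a 110.1-fold range, and the baseline livers differed 4.53-fold. The log2 fold change was 0.78 for ischemic controls and 0.77 for all livers at 6 h against baseline, or 0.07 and 0.05 without baseline 1a and 2.19 and 2.18 without baseline 2. DDIT3 (ENSSSCG00000050998, chr5:22785441-22789867) encodes CHOP, the transcription factor that ties lasting ER stress to cell death and that can itself raise PPP1R15A. Its counts were 1055 and 2984 at baseline and 464 to 4045 at 6 h, and 6 of 11 livers lay between the baseline values. Its log2 fold changes were 0.16 and 0.04.

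TRIB3 (ENSSSCG00000039862, chr17:34808273-34819592), a pseudokinase that ATF4 and CHOP induce, had 1688 and 7355 normalized counts at baseline and 859 to 7867 at 6 h, and its log2 fold changes against baseline were -0.76 for ischemic controls and -0.52 for all livers at 6 h. ASNS (ENSSSCG00000015340, chr9:77318341-77336290), which makes asparagine, had 4923 and 3302 at baseline and 432 to 6330 at 6 h, with log2 fold changes of -0.58 and -0.45. The last pair of ATF4 targets act in redox and growth control. SESN2 (ENSSSCG00000029438, chr6:85321982-85348044), which restrains mTORC1 when amino acids are scarce, had 582 and 1996 at baseline, a narrow 1687 to 1965 in ischemic controls, and 323 to 3733 over all livers at 6 h. CHAC1 (ENSSSCG00000038521, chr1:130360510-130363332), which breaks down glutathione, had 103 and 896 at baseline, 2372, 228 and 686 in ischemic controls, 217, 1486, 927 and 82.8 after arterial infusion, and 215, 70.0, 215 and 434 after portal infusion. Livers at 6 h lay above, within and below the baseline range for each of these 4 genes. The log2 fold change of CHAC1 in ischemic controls against baseline was 1.19 ± 1.20 (SE), and it went from -0.12 without ischemic control 1 to 3.41 without baseline 2.

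XBP1 (ENSSSCG00000030996, chr14:46011239-46016526), which drives secretory capacity once spliced, had 18218 and 29716 normalized counts at baseline. The ischemic controls had 16744, 8404 and 9526, the livers after arterial infusion 2550.1, 11594, 18231 and 9808, and those after portal infusion 1542, 11505, 12044 and 3790. The single overlap was arterial infusion 3, with 18231 against 18218 in baseline 1a, and on CPM of the total count the 11 livers all lay below baseline. The baseline mean was 2.49 times that of the livers at 6 h, and the log2 fold change was -1.31 ± 0.64 (SE), with an adjusted p of 0.86 by edgeR's quasi-likelihood test and an exact permutation p of 0.0641. Without the 4 livers apart it was -0.89. HERPUD1 (ENSSSCG00000040663, chr6:18901171-18913427), an ER membrane protein of the degradation machinery that ER stress induces, had 5757 and 9265 at baseline and 3488 to 17094 at 6 h. Its livers at 6 h lay above both baseline livers in 6 cases and below both in 4, and its log2 fold changes were 0.15 and 0.24.

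**Figure D2:**
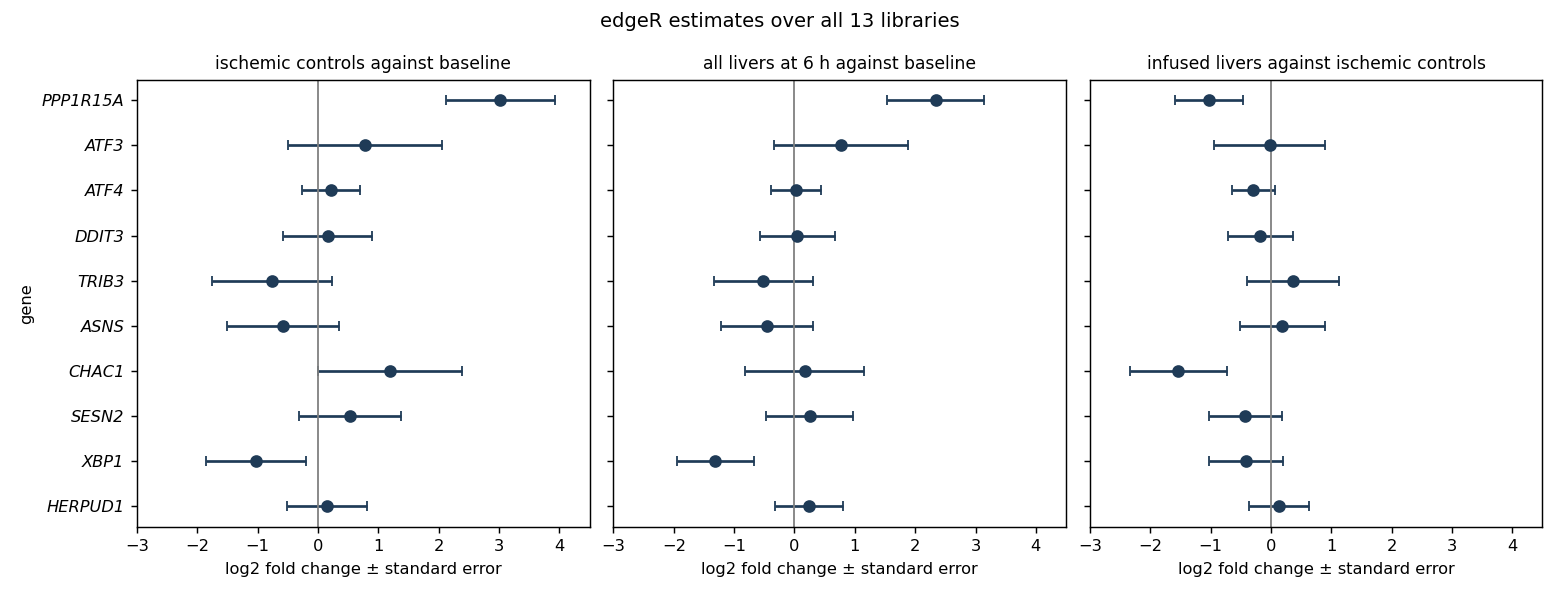
Log2 fold change (points) with its standard error, derived from the F statistic (bars), from the edgeR fit over 13 libraries, for the 10 genes in 3 comparisons. PPP1R15A stands at 3.02 and 2.34 against baseline and at -1.02 in infused livers against ischemic controls, and 0 of the 10 genes passed the adjusted threshold in any of the 3.

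The level of PPP1R15A was next set against each other gene within the same liver, as the log2 ratio of normalized counts, which does not depend on the scaling of a library. In ischemic controls each of the 9 ratios was higher than at baseline, by 1.79 to 4.10 on the log2 scale, and 8 of 9 did not overlap with baseline, the exception being the ratio to CHAC1. The exact permutation p-values were between 0.1 and 0.4, and 0.1 is the lowest possible. Over all 11 livers at 6 h the differences were between 1.73 and 3.74, with exact permutation p-values of 0.0128 to 0.19. The ratio to ATF4 had a mean of -3.12 ± 0.93 (SD, n = 11) at 6 h against -5.21 ± 0.19 (SD, n = 2) in the baseline livers, a difference of 2.09 with an exact permutation p of 0.0128, the smallest possible. The ratio to XBP1 was higher by 3.74 (exact permutation p = 0.0256) and that to DDIT3 by 2.13 (exact permutation p = 0.0385, or 0.0513 with a pseudocount of 5). These 3 ratios did not overlap with baseline, and the other 6 did. The differences were not computed without the 4 livers apart, in which XBP1 (1542 to 8404) lay wholly below the other 7 (9526 to 18231). The p-values are not adjusted for the 27 ratios tested, and all 9 ratios share the values of PPP1R15A. PPP1R15A alone did not overlap with baseline either, so the higher ratios in part restate its own level. The share of all genes whose ratio to PPP1R15A does not overlap with baseline was not computed.

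Other genes of these pathways were described through 5 lists with 86 genes, of which 84 were tested. None passed the adjusted threshold in the comparisons with baseline, the lowest adjusted p for all livers at 6 h against baseline being 0.86 by edgeR's quasi-likelihood test. ER chaperones and folding factors leaned upward, with 15 of 16 higher in ischemic controls (median log2 fold change 0.64) and 14 of 16 in all livers at 6 h (median 0.47). Of ATF4 targets and amino acid response genes, 14 of 32 were higher in ischemic controls (median -0.16) and 7 of 32 in all livers at 6 h (median -0.37). Over all genes tested, 50.2% and 49.5% were higher in these comparisons. At 6 h, 4 of 12 eIF2alpha kinase and phosphatase genes were higher (median -0.12), of ER stress sensors 2 of 8 (median -0.29) and of ER-associated degradation genes 7 of 16 (median -0.10). Without the 4 livers apart, the counts were 15 of 16 chaperones (median 0.66), 11 of 32 ATF4 targets (median -0.15), 7 of 12 kinase and phosphatase genes (median 0.05), 4 of 8 sensors (median 0.00) and 11 of 16 degradation genes (median 0.14).

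Chaperones with all 11 livers above both baseline livers were 4 of 16, CRELD2, SDF2L1, MANF and ERO1A, against 3.3% of all genes, and none of the 12, 32, 8 and 16 genes of the other lists showed this. The genes named from each list are those with the smallest p in this comparison, and ERO1A and HSPA5 were added after their values were seen, so their values are a description. CRELD2, an ER folding factor, had 1974 and 892 normalized counts at baseline, 4099.5, 16313 and 9403 in ischemic controls, 5922, 4140, 2692 and 5446 after arterial infusion and 11181, 3010, 3982 and 7504 after portal infusion. Its log2 fold change for all livers at 6 h was 2.16 ± 0.62 (SE). SDF2L1, which works with the chaperone BiP, had 529 and 247 at baseline and 754 to 7824 at 6 h, a log2 fold change of 2.89 ± 0.89 (SE). The adjusted p of SDF2L1 was 0.86 in the edgeR test, 0.0498 in DESeq2 on 13 libraries, and 0.028 in edgeR without the filter on low counts. MANF, a secreted ER stress factor, had 4662 and 4166 at baseline and 7424 to 23015 at 6 h (log2 fold change 1.21 ± 0.45, SE). HSPA5, which encodes BiP, had a log2 fold change of 0.33.

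Among ATF4 targets, NUPR1, a stress-induced chromatin protein, had 4560 and 4925 normalized counts at baseline and 4319 to 52563 at 6 h, above both baseline livers in 10 of 11 (log2 fold change 2.10). CEBPB, a transcription factor of the acute phase, was above both in 9 of 11 (1.31). The 4 livers apart had the highest counts of both genes at 6 h, and without them the log2 fold changes were 0.99 and 0.60. GPT2, a mitochondrial aminotransferase, was below both in 9 of 11 (-1.91, or -0.64 without baseline 2). Of the sensors, MBTPS1, the protease that activates ATF6, had 2790 and 2747 at baseline and 910 to 2373 at 6 h, below both in all 11 (log2 fold change -0.81 ± 0.40, SE, or -0.53 without the 4 livers apart). Thus 1 of 8 sensors lay wholly below baseline, against 3.97% of all genes. None of the 12, 32, 16 and 16 genes of the other lists did. For counts of fewer than all 11 livers, such a share was not computed. CREB3L3, a hepatocyte ER-bound transcription factor, had a log2 fold change of 1.13 and CREB3L2, a relative of it, one of -0.63. EIF2AK3 (PERK), the kinase that phosphorylates eIF2alpha under ER stress, had 729 and 1334 at baseline and 250 to 1097 at 6 h (-0.80, or -0.35 without baseline 2). PPP1R15B, the constitutive counterpart of PPP1R15A, had a log2 fold change of -0.56, or -0.015 without baseline 2, with 7 of 11 livers below both baseline livers and none above, and EIF2B4, a subunit of the exchange factor for eIF2, one of 0.65. Of the degradation genes, DERL3, which helps draw misfolded protein out of the ER, had 64.0 and 42.2 at baseline and 22.2 to 1142 at 6 h (2.49, or 1.65 without the 4 livers apart), and OS9, a lectin that recognizes misfolded glycoproteins, was below both baseline livers in 9 of 11 (-0.61).

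**Figure D3:**
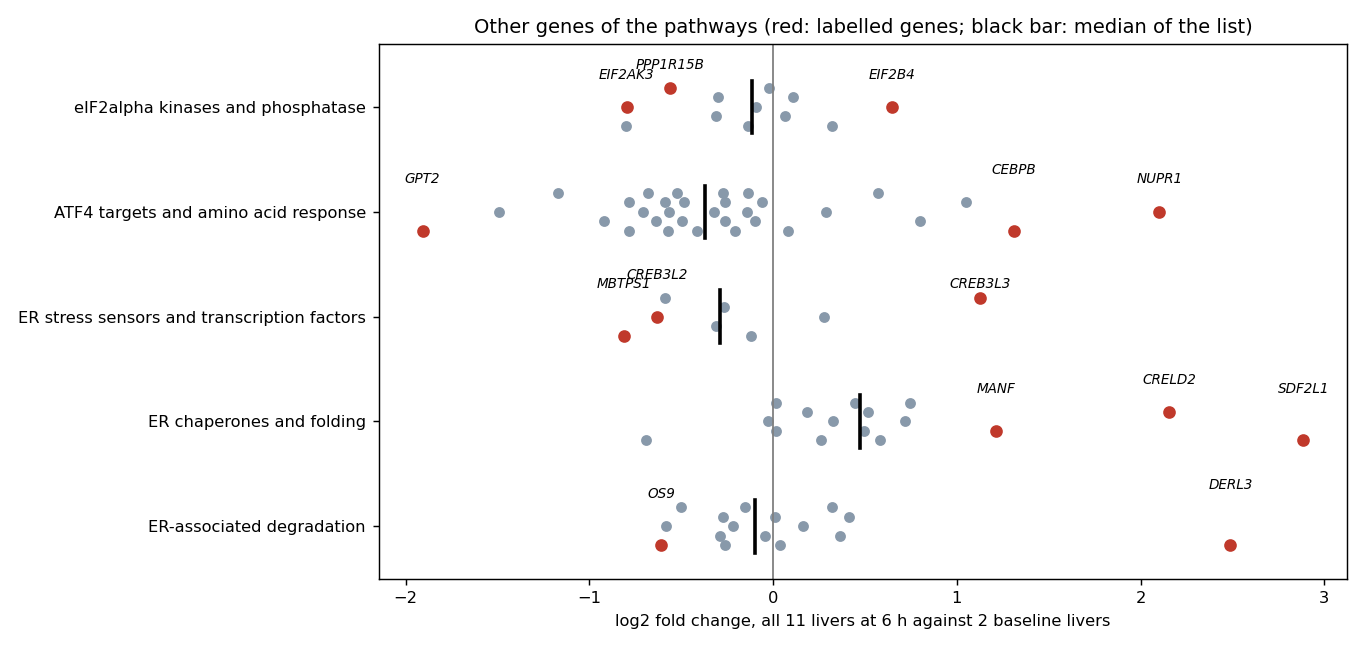
Log2 fold change of all 11 livers at 6 h against 2 baseline livers for the 84 pathway genes tested, 1 point per gene and 1 row per list, with the 14 labelled genes in red and the list median as a black bar. The chaperone median is 0.47 and that of ATF4 targets -0.37.

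The baseline livers differed from each other in most of the 10 genes. Baseline 2 exceeded baseline 1a by over 1 on the log2 CPM scale in 6 of 10, against 7.4% of all genes, and the median difference was 1.32 over the 10 genes and -0.02 over all genes. The differences were 3.05 for CHAC1, 2.13 for ATF3, 2.08 for TRIB3, 1.73 for SESN2, 1.45 for DDIT3 and 1.19 for PPP1R15A, and ASNS was lower in baseline 2 by a log2 difference of -0.62. Hepatocyte markers summed to 43541 CPM in baseline 1a and 98260 CPM in baseline 2, and their part in these differences was not tested. Within groups, the SD on the log2 CPM scale was 1.91 for ATF3 and 1.66 for CHAC1, higher than for 94.3% and 87.6% of all genes, and 0.46 for ATF4, higher than for 14.1%. PPP1R15A had 0.96, near the median of all genes (0.89).

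**Figure D4:**
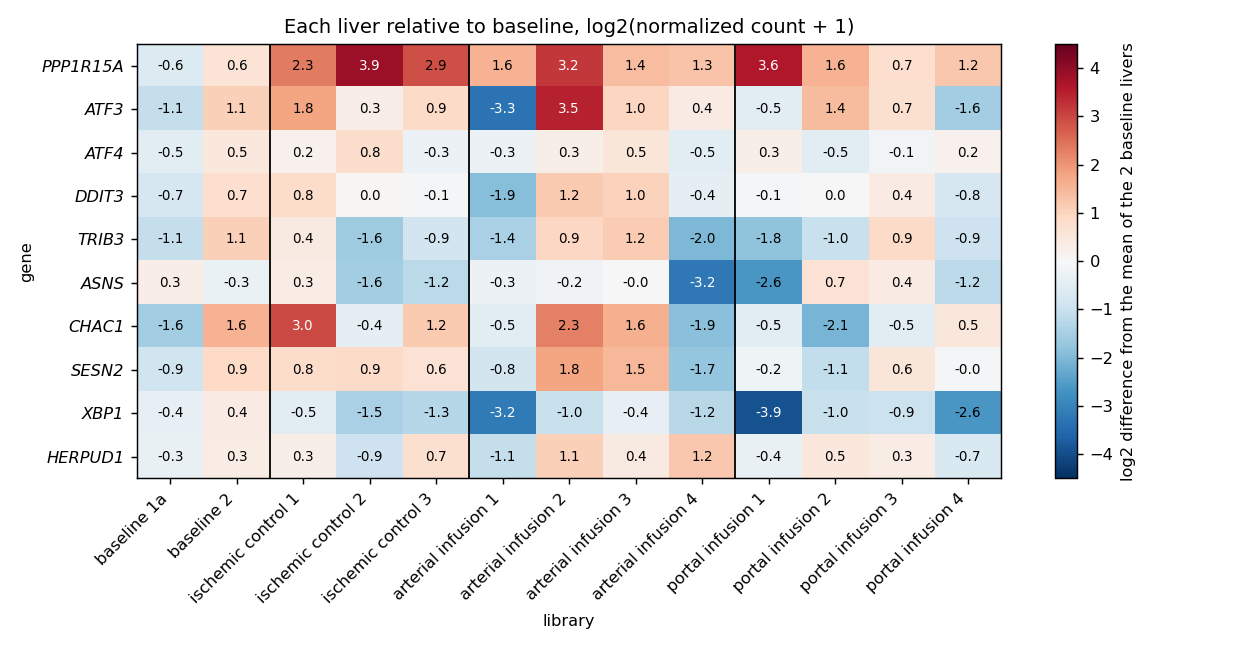
Difference of each liver from the mean of the 2 baseline livers, in log2(normalized count + 1), for the 10 genes (rows) in 13 libraries (columns). PPP1R15A is above 0 in all 11 livers at 6 h and XBP1 below 0 in all 11, while each of the other 8 genes is above 0 in some livers at 6 h and below 0 in others.

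The next question was whether the genes varied together from liver to liver. Since the 11 livers at 6 h fell into separate clusters, relations were computed in the 7 livers that did not stand apart (2 ischemic controls, 3 livers of the arterial and 2 of the portal group), too few for values within a group. Within these 7 livers, ATF4 mRNA was high where DDIT3, SESN2, TRIB3, CHAC1 and XBP1 were high. The 4 livers apart, left out here, had a mean normalized count of ATF4 of 17951, against 14486 in the 7. Their means were lower for DDIT3 (1255 against 2562), SESN2 (1140 against 1821) and TRIB3 (1327 against 4331). The same held for CHAC1 (273 against 834) and XBP1 (4071 against 12779). Pearson's r with ATF4 was 0.93 for DDIT3 (exact permutation p = 0.00615; rho = 0.86, p = 0.024), 0.88 for SESN2 (exact permutation p = 0.0077; rho = 0.89, p = 0.012), and 0.87 for TRIB3 (exact permutation p = 0.0165; rho = 0.93, p = 0.0067). It was 0.82 for CHAC1 (exact permutation p = 0.035; rho = 0.82, p = 0.034) and 0.79 for XBP1 (exact permutation p = 0.037; rho = 0.75, p = 0.066). Without arterial infusion 3 and portal infusion 2, the livers farthest from the median of ATF4, these r values were between 0.71 and 0.99. The share of all genes with such r values to ATF4 was not computed. For ATF3, ASNS and HERPUD1, r was 0.44, 0.41 and -0.28 (exact permutation p of 0.34, 0.40 and 0.52; rho of 0.43, -0.07 and -0.32 with p of 0.35, 0.91 and 0.50).

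The same relations were computed for PPP1R15A. Its r with ATF4 was 0.23 (exact permutation p = 0.61; rho = 0.21, p = 0.66), with DDIT3 0.33 (exact permutation p = 0.45; rho = 0.36, p = 0.44) and with TRIB3 0.08 (exact permutation p = 0.87; rho = 0.14, p = 0.78). The highest was with ATF3, at 0.70 (exact permutation p = 0.0585; rho = 0.75, p = 0.066), or 0.82 without arterial infusion 2 and ischemic control 3. CHAC1 followed with 0.64 (exact permutation p = 0.13; rho = 0.54, p = 0.24) and SESN2 with 0.47 (exact permutation p = 0.29; rho = 0.61, p = 0.17), the latter 0.14 without those livers. HERPUD1, ASNS and XBP1 had r values of 0.30, 0.02 and -0.15 (exact permutation p of 0.49, 0.955 and 0.72; rho of 0.21, -0.21 and -0.21, each with p = 0.66). In all 17 relations were computed, those with ATF4 after the correlations had been seen, and the p-values are not adjusted for that number. Whether the r values of ATF4 and PPP1R15A differ was not tested.

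**Figure D5:**
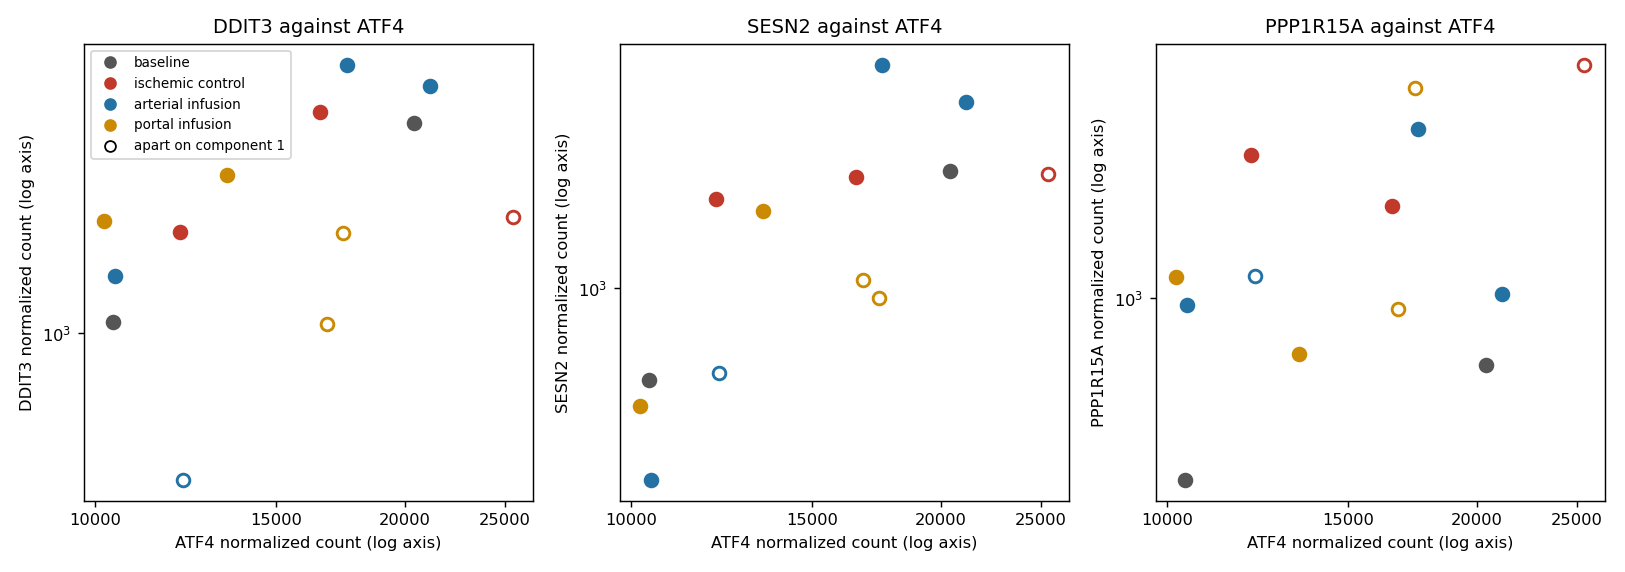
Normalized counts (log axes) of DDIT3, SESN2 and PPP1R15A against ATF4, 1 circle per liver in 13 libraries, colored by group, with open circles for the 4 livers apart. Over the 7 filled circles at 6 h, r is 0.93 for DDIT3, 0.88 for SESN2 and 0.23 for PPP1R15A.

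In the 4 livers apart, ATF3 (141 to 1748), XBP1 (1542 to 8404) and HERPUD1 (3488 to 5728) lay wholly below the other 7 livers at 6 h (1836 to 15516, 9526 to 18231 and 8837 to 17094). PPP1R15A did not separate them, with 919 to 5724 against 657 to 3543. These livers were set apart by their expression, so the values are given as a description. The share of all genes that separate the livers in this way was not computed. Their summed neutrophil markers were 74.9 to 397 CPM against 18.9 to 163 CPM in the other 7, and their erythroid markers 166 to 1001 CPM against 37.5 to 489 CPM.

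The last question was whether livers given BM-MSCs differed from ischemic controls. PPP1R15A lay below all 3 controls in 6 of 8 infused livers, and the other 2, arterial infusion 2 and portal infusion 1, lay within the control range. SESN2 also lay below all 3 controls in 6 of 8, with the other 2 above them. The remaining stress genes did so in 1 to 5 of 8. The share of all genes with such counts was not computed. The mean of PPP1R15A was 1675 ± 1249 (SD, n = 4) after arterial and 1889 ± 1959.7 (SD, n = 4) after portal infusion, and 3538 ± 1949 (SD, n = 3) in controls. The log2 fold change of infused livers against controls was -1.02 ± 0.56 (SE), with an adjusted p of 1.00 by edgeR's quasi-likelihood test and an exact permutation p of 0.10. By route it was -1.08 for arterial and -0.97 for portal infusion, and the routes differed by -0.11 ± 0.61 (SE), a value that became 1.00 without the 4 livers apart.

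Of the 10 genes, 3 were higher and 7 lower in infused livers than in controls, with a median log2 fold change of -0.23 beside -0.02 for all genes. In none of the 10 were infused livers and controls free of overlap, against 0.564% of all genes. At an unadjusted p under 0.05, edgeR picked 353 of all genes and 0 of the 10 in this comparison, 258 and 0 for arterial infusion against controls, 460 and 1 for portal infusion against controls, and 396 and 0 between routes. DESeq2 on 13 libraries called 2, 1, 3 and 1 genes at the adjusted threshold and 0 of the 10. CHAC1 was the 1 gene picked, with a log2 fold change of -2.33 for portal infusion against controls (unadjusted p = 0.031 and adjusted p = 1 by edgeR's quasi-likelihood test, exact permutation p = 0.14). For infused livers together it was -1.54 ± 0.80 (SE), and 5 of 8 lay below all controls. Without ischemic control 1, the highest of the 13 livers, these values were -1.01 and -0.22. SESN2 was lower in all 4 livers after portal infusion (499.7 to 1580.1) than in the 3 controls, a pattern shown by 2.33% of all genes (exact permutation p = 0.057, where 0.029 is the smallest possible), while arterial infusion 2 and 3 lay above the controls.

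ATF4 had a log2 fold change of -0.29 in infused livers against controls, SESN2 of -0.43, XBP1 of -0.41, DDIT3 of -0.18 and ATF3 of -0.02, and TRIB3, ASNS and HERPUD1 of 0.37, 0.19 and 0.13. Of the chaperones 3 of 16 were higher in infused livers than in controls, with a median of -0.31, or 8 of 16 and -0.04 without the 4 livers apart. Reads were mapped to the pig genome, and the share of human RNA counted on pig genes was not tested.

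Over all 13 libraries, genes whose log2 CPM followed PPP1R15A closely were MAFF, a small Maf transcription factor (r = 0.94), PLAUR, the urokinase receptor (0.89), JDP2, a repressor of AP-1 (0.86), and GFAP, an intermediate filament protein (0.85). MAFF had 476 and 686 normalized counts at baseline, 1225, 2627 and 2322 in ischemic controls, 1445.5, 2111, 750.4 and 998 after arterial infusion, and 2388, 1507, 677 and 777 after portal infusion. Ischemic control 2 and portal infusion 1 were the highest livers in both genes and baseline 1a the lowest. These genes were picked for the highest r over the same 13 libraries, which hold baseline livers and both clusters, so the values are a description. Without the 4 livers apart these r values were between 0.76 and 0.93, over libraries already used for the choice. GFAP had normalized counts between 2.3 and 195, so its value is uncertain.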

How the data were processed

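The data were RNA sequencing counts of 13 pig livers in 4 groups (baseline 2, ischemic control 3, arterial infusion 4, portal infusion 4). The authors deposited raw counts per gene, made from poly-A, non-directional libraries: reads with adapter, many uncertain bases or low quality were removed, the rest were mapped to Sscrofa11.1 with HISAT2 and counted with FeatureCounts and the annotation of Ensembl 110. Tool versions, strandedness of counting and treatment of multi-mapping reads are not given in the sources used here. Without strand, reads of a gene and of an antisense or overlapping gene cannot be told apart. The total count was 18975413 to 35949178 with a median of 30260803.

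Groups and replicate numbers came from the sample labels, and 0 columns were left without a sample. Between libraries of a group the chi-square per gene was at least 83.6, so no library was a copy of another. The 10 genes, the pathway lists and the marker lists were chosen with earlier results of these data known. Named pathway genes are the 3 of each list with the smallest unadjusted p for all livers at 6 h against baseline, and the genes most like PPP1R15A are the 5 with the highest Pearson's r of log2 CPM over 13 libraries. Of these named genes, 1 of each kind is not reported here. EIF2B1 and MBTPS2 had no row under that symbol. Coordinates are those of RefSeq on Sscrofa11.1, matched by gene.

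Differences were tested by the quasi-likelihood test of edgeR 4.0.16 under R 4.3.3, after filterByExpr and TMM scaling, with Benjamini-Hochberg adjustment over 16481 genes and a threshold of 0.05, the 4 groups sharing 1 fit with a biological coefficient of variation of 0.73. The SE of a log2 fold change was derived as its absolute value divided by the square root of the F statistic of that test. Single genes and ratios were also compared by two-sided exact permutation tests over livers on log2(normalized count + 1), with size factors from DESeq2 1.42.0. The edgeR and DESeq2 steps were tested on simulated data first. Alternatives were DESeq2, fits of the compared groups only, other normalizations (RLE, upper quartile), other filters, mitochondrial and small RNA genes left out, pseudocounts, the replicate block and each library left out. The fits without the 4 livers apart, the overlap on other scalings, and the use of 7 livers for correlations were chosen after seeing the data.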

Additional observations from a re-analysis of the deposited data

Results flagged for a closer look

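In groups of 4 livers, a library was singled out where its gap to the nearest other liver exceeded Dixon's critical share of the group's range. For normally distributed values, chance passes this limit in about 5% of groups. The limit was applied to normalized counts without a log, for which that rate was not checked. Of 50 groups of the 10 stress genes and the named pathway genes, 5 passed, each through its highest liver. PPP1R15A was singled out in both infusion groups. In the arterial group it had a normalized count of 3543 in arterial infusion 2, with 1177 in the next liver, and in the portal group 4812 in portal infusion 1, with 1167 in the next. These are the 2 infused livers that lay within the range of the ischemic controls. Portal infusion 1 was among the 4 livers apart on component 1, and arterial infusion 2 was not. Arterial infusion 2 also had the highest ATF3 count of all livers (15516) and the highest mitochondrial share of counts (22.0%), whose part in these values was not tested.

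TRIB3 had 6461 in portal infusion 3 against 1856 in the next liver of that group. GPT2, a target of ATF4, had 4127 in arterial infusion 3 against 892 in the next, and this liver also had the highest TRIB3 count of all livers, 7867. DERL3 had 1142 in portal infusion 1 against 157 in the next, and its count in ischemic control 3, which is not among the livers apart, was 1135.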

How the results depend on the processing

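The number of genes past the adjusted threshold depended on the method. For ischemic controls against baseline it was 0 in edgeR, 7 in DESeq2 on 13 libraries, 169 in DESeq2 on the 5 libraries compared and 30 in edgeR without the filter on low counts, and the last pair of settings each called 1 of the 10 stress genes, PPP1R15A. For all livers at 6 h against baseline DESeq2 called 16 genes and edgeR without the filter 28. For infused livers against controls the counts were 2 (DESeq2, 13 libraries), 2 (DESeq2, groups compared only), 19 (no filter) and 1 (without the 4 livers apart), for arterial infusion against controls 1, 0, 11 and 1, for portal infusion against controls 3, 3, 14 and 0, and between routes 1, 0, 5 and 0. No stress gene was called in any of these 4. The causes were not tested. On CPM of the total count, 2 of the 10 genes (PPP1R15A and XBP1) did not overlap between baseline and 6 h, against 1 on normalized counts.

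PPP1R15A kept its sign against baseline and against controls in all settings, and lay between 2.53 and 3.72 in ischemic controls and between 1.84 and 3.03 in all livers at 6 h with single livers left out. XBP1 kept its sign against baseline too. Other signs turned, and the cause was not tested. Without the 4 livers apart ATF4 had -0.083 in ischemic controls and -0.11 at 6 h, DDIT3 0.025 and ATF3 0.27 in infused livers against controls, and PPP1R15A 1.00 between routes. With mitochondrial and small RNA genes left out, ATF4 had -0.026 and DDIT3 -0.00066 at 6 h. ATF3 in infused livers against controls, -0.02 as reported, was 0.0128 and 0.0102 in the DESeq2 fits, 0.0074 in edgeR on the groups compared, 0.0127 and 0.0289 with RLE and upper quartile normalization, and 0.0104 with at least 10 counts in every library.

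Leaving out 1 liver at a time gave the following ranges of log2 fold changes that crossed 0. In ischemic controls against baseline they were -0.19 to 0.73 for ATF4, -0.40 to 1.05 for DDIT3, -1.56 to 0.61 for TRIB3, -0.12 to 3.41 for CHAC1, -0.10 to 1.63 for SESN2 and -0.21 to 0.50 for HERPUD1. In all livers at 6 h they were -0.38 to 0.53 for ATF4, -0.52 to 0.93 for DDIT3, -1.22 to 0.85 for TRIB3, -0.69 to 2.37 for CHAC1, -0.39 to 1.34 for SESN2 and -0.062 to 0.57 for HERPUD1, the extremes each time without baseline 1a or baseline 2. In infused livers against controls they were -0.84 to 0.53 for ATF3, -0.54 to 0.0022 for ATF4, -0.36 to 0.21 for DDIT3, -0.081 to 1.17 for TRIB3, -0.14 to 1.05 for ASNS and -0.22 to 0.49 for HERPUD1. Ranges that kept their sign and moved by over 1.5 times were 0.07 to 2.19 and 0.05 to 2.18 for ATF3 and -1.44 to -0.25 and -0.75 to -0.12 for ASNS in ischemic controls and in all livers at 6 h, and at 6 h -2.59 to -0.64 for GPT2, -0.98 to -0.015 for PPP1R15B, -1.17 to -0.35 for EIF2AK3 and 0.64 to 1.81 for CREB3L3, each with baseline 1a, baseline 2 or ischemic control 1 left out. XBP1 in ischemic controls lay between -1.45 and -0.68. In infused livers against controls they were -1.50 to -0.54 for PPP1R15A, -2.0 to -0.22 for CHAC1, -0.69 to -0.25 for SESN2 and -0.63 to -0.0018 for XBP1, and by route -1.73 to -0.59 and -1.93 to -0.48 for PPP1R15A, and -2.79 to -1.01 for CHAC1 after portal infusion. CHAC1 in arterial infusion against controls gave -1.42 to 0.57, without arterial infusion 2 and without ischemic control 1, and PPP1R15A between routes -0.76 to 0.85, without arterial infusion 2 and without portal infusion 1.

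Over 7 livers, r with PPP1R15A turned to -0.022 for TRIB3, 0.48 for XBP1 and -0.25 for HERPUD1 without the livers farthest from the median. The deviations of livers with the same replicate number correlated with r from -0.42 to 0.43 over 16 pairs, 5 of them over 0.1. Between the infusion groups r was 0.42, 0.29, 0.43 and -0.10 for numbers 1 to 4, and 4 of 8 livers correlated best with their own number. Not every pair was over 0.1, so the numbers were not taken as pairs, and whether they mark a shared pig or day is not given in the sources used here. With the replicate block edgeR called 0 genes, and in infused livers against controls TRIB3 had -0.058 and HERPUD1 -0.022.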
